A study of Homo sapiens with 6 samples.

Results

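The aldo-keto reductases described here are 9 genes chosen by symbol: AKR1A1, AKR1B1, AKR1B10, AKR1C1, AKR1C2, AKR1C3, AKR1C4, AKR7A2 and AKR7A3. All 9 had a row in the gene tables, among 19089 genes with reads in at least 1 of the 6 libraries. The libraries came from 3 human hepatocellular carcinoma lines, HCCLM3, MHCC97H and Hep3B, none of them with a stated treatment or genetic change. HCCLM3 and MHCC97H are lines of high metastatic capacity that descend from 1 parental line and are thus related. HCCLM3 and MHCC97H were grown in DMEM with 10% fetal bovine serum and Hep3B in MEM with 15% serum and sodium pyruvate, and all 3 media held antibiotics. In each line 2 fractions were sequenced after poly(A) selection: RNC-mRNA, which was recovered with ribosomes still holding a growing peptide and so was being translated, and mRNA of the whole cell. Each of these 6 groups was 1 library from a pool of 3 cultures, so no group had replicates. The family was picked with earlier results of these data known, so its levels by line are a description with no test. Line and culture medium cannot be told apart.

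Aldo-keto reductases are soluble enzymes that use NADPH to reduce aldehydes and ketones to alcohols. The AKR1B members reduce sugars, retinaldehyde and lipid aldehydes, the AKR1C members are hydroxysteroid dehydrogenases that also reduce prostaglandins, and the AKR7A members reduce dialdehydes such as that of aflatoxin. In liver they take part in steroid, bile acid and xenobiotic metabolism. Several of them are known targets of NRF2, the transcription factor of the oxidative stress response, and AKR1B10 is known as a gene often raised in hepatocellular carcinoma.

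The AKR1C genes lie side by side on chromosome 10 and have related sequences. The 250 bases before their start sites are given because AKR1C1, AKR1C2 and AKR1C3 were all abundant in HCCLM3 and MHCC97H and scarce in Hep3B, described later, while AKR1C4 was low throughout. The sequences are from RefSeq on GRCh38.p14, at chr10:4963165-4963414 (plus strand) for AKR1C1, chr10:5003858-5004107 (minus strand) for AKR1C2, chr10:5048531-5048780 (plus strand) for the first of the 2 start sites of AKR1C3, and chr10:5196587-5196836 (plus strand) for AKR1C4. Capitals mark bases that differ from AKR1C1, or are inserted between its bases, within the aligned stretch of a pairwise alignment, and overhanging ends are in lower case.
AKR1C1: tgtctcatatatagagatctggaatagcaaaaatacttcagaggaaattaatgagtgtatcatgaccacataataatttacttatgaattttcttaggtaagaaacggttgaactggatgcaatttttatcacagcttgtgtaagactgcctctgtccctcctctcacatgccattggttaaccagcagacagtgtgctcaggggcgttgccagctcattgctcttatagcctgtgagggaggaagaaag
AKR1C2: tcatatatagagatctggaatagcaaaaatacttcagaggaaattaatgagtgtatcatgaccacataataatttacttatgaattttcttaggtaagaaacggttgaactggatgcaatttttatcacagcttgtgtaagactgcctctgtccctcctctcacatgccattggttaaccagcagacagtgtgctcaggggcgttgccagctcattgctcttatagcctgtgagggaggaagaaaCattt
AKR1C3: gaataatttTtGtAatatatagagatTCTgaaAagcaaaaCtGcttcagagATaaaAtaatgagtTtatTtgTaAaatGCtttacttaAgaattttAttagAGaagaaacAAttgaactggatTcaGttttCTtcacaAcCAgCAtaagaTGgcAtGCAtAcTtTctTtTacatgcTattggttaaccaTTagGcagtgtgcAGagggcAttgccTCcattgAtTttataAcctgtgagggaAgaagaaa
AKR1C4: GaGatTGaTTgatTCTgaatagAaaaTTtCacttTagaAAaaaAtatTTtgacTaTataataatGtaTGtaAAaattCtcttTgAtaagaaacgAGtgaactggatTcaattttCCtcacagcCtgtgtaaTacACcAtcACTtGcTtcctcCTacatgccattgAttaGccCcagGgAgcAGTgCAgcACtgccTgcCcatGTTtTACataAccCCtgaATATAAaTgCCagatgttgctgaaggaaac
Of 246 aligned bases, 245 were identical between AKR1C1 and AKR1C2. AKR1C3 shared 185 of 241 aligned bases with AKR1C1, and AKR1C4 shared 155 of 231. The identity with AKR1C1 was thus 67.1% for AKR1C4, 76.8% for AKR1C3 and 99.6% for AKR1C2. In the same kind of alignment the stretches of AKR1A1, AKR1B1, AKR7A2 and AKR7A3, on other chromosomes, shared 51.3 to 60.1% with AKR1C1. AKR1A1 and AKR1B1, which lie on different chromosomes, shared 64.5% with each other. The 67.1% of AKR1C4 lay above these values, and AKR1C4 shared 68.7% and 72.1% with the 2 listed stretches of AKR1C3.

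AKR1B1, on chromosome 7, had upstream sequences richer in CpG than those of the AKR1C genes. The stretch before the first of its 2 listed start sites is given, at chr7:134459101-134459350 (minus strand, GRCh38.p14), with a CCAAT box in capitals.
AKR1B1: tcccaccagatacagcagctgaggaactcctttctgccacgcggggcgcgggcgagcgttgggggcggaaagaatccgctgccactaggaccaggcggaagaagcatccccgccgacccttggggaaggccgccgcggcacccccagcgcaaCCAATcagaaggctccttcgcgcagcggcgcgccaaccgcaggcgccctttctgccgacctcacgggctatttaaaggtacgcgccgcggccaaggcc
This stretch had 28 CpG dinucleotides and a GC content of 68%, against 0 to 2 CpG and 32 to 40.8% GC in the 5 listed upstream stretches of AKR1C1 to AKR1C4. The stretch before the second AKR1B1 start site had 12 CpG, 50.8% GC and no CCAAT box. AKR1A1, AKR7A2 and AKR7A3 were also rich in CpG, with 17, 31 and 27. Over all 34943 upstream stretches of this length the median was 11 CpG and 58% GC. The core of the antioxidant response element, through which NRF2 acts, was searched on both strands as TGACNNNGC and matched in AKR7A2, with 3 matches in each of its 2 listed stretches. It matched none of the other 9 stretches of the members, and 10.9% of all promoters of this length held it. The 8 members with a listed promoter were searched, and AKR1B10 was not. CCAAT, searched on both strands, was found in the first stretch of AKR1B1, in AKR1C1, AKR1C2 and both stretches of AKR1C3, and in 32% of all promoters. TATAAA, searched on both strands, was found in AKR1C3 and AKR1C4, and in 10.8% of all promoters. In AKR1C4 it lay on the strand of the gene, 29 bases before the start. In AKR1C3 it lay on the opposite strand, as TTTATA, 26 bases before the first start site. These are matches of letters and say nothing of binding.

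The gene tables held 119086844 to 147788269 reads per library, of which 14248 to 1258232 came from the 9 members. The hepatocyte label was checked on 10 marker genes of plasma proteins and HNF4A. In HCCLM3 and MHCC97H 4 to 8 of these reached 1 RPKM (reads per kilobase of gene model and 1000000 reads), with a summed level of 23.2 to 57.6 RPKM. In Hep3B all 10 did, with a sum of 26670 RPKM in RNC-mRNA and 15650 in mRNA. By a 4-fold rule all 10 were lower in HCCLM3 than in Hep3B, and 9 of 10 in MHCC97H, in both fractions. FGB was the exception, at 14.56 RPKM in MHCC97H RNC-mRNA and 16.53 in MHCC97H mRNA, against 10.57 and 4.995 in Hep3B. Most hepatocyte markers thus moved with line, and the part of this in the results below was not tested. Of 6 biliary markers 4 reached 1 RPKM in each library, with sums of 643 to 1004 RPKM in HCCLM3 and MHCC97H and 276 and 321 in Hep3B. They did not move together, since against Hep3B a 4-fold rule gave 3 higher and 2 lower for HCCLM3 and 2 and 2 for MHCC97H, with EPCAM at 0.170 to 0.290 RPKM in HCCLM3 and MHCC97H and 136 and 143 in Hep3B. Markers of stellate, endothelial and erythroid cells summed to at most 14.6, 8.71 and 0.424 RPKM. Leukocyte markers summed to 49.7 to 77.4 RPKM in HCCLM3 and MHCC97H and 247 and 126 in Hep3B. The tables name the fractions by the letters A and C. C was read as RNC-mRNA and A as mRNA from the sample titles, and an exchange would turn the sign of each RNC-mRNA to mRNA ratio.

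HCCLM3 and MHCC97H held far more aldo-keto reductase mRNA than Hep3B. The 9 members took 0.762% of the reads in HCCLM3 RNC-mRNA, 0.700% in HCCLM3 mRNA, 0.873% in MHCC97H RNC-mRNA and 0.800% in MHCC97H mRNA, against 0.0163% in Hep3B RNC-mRNA and 0.0120% in Hep3B mRNA. The makeup differed too. AKR1B1 and AKR1B10 made up 74.4 to 79.6% of the members' summed RPKM in the 4 libraries of HCCLM3 and MHCC97H and AKR1C1 to AKR1C4 19.0 to 24.0%. In Hep3B, AKR1A1, AKR7A2 and AKR7A3 made up 91.8% in RNC-mRNA and 94.5% in mRNA. These shares depend on the gene model lengths behind the RPKM, such as 6705 bases for AKR1C1 and 1590 for AKR1B10. Counted in reads, AKR1C1 to AKR1C4 held 467432 of the members' 1074542 in HCCLM3 RNC-mRNA, a larger part than by RPKM. In bulk RNA a smaller share of expressing cells and less RNA per cell cannot be told apart.

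**Figure D1:**
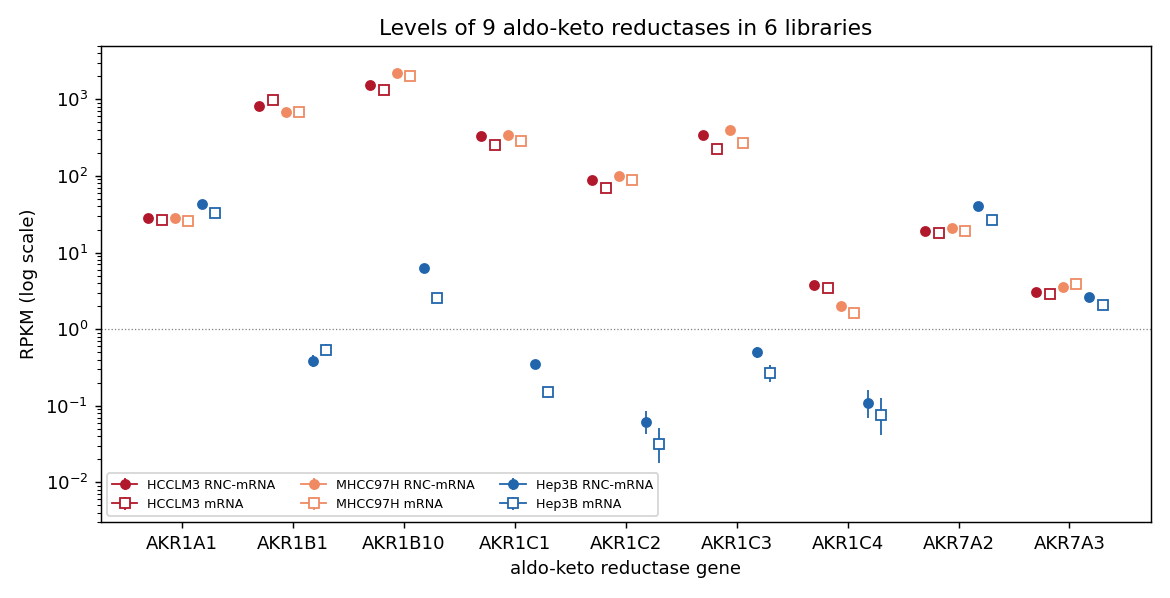
RPKM of each gene (log scale) in the 6 libraries, with filled circles for RNC-mRNA, open squares for mRNA and bars for the 95% counting interval, mostly smaller than the symbols. AKR1B1, AKR1B10 and AKR1C1 to AKR1C4 are lower in Hep3B (blue) than in HCCLM3 and MHCC97H (reds), while AKR1A1, AKR7A2 and AKR7A3 lie between 2.09 and 43.4 RPKM in all 3 lines.

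AKR1B10, an NADPH reductase of retinaldehyde and lipid aldehydes, was the most abundant member in HCCLM3 and MHCC97H. Its level was 1537 RPKM in HCCLM3 RNC-mRNA, 1319 in HCCLM3 mRNA, 2229 in MHCC97H RNC-mRNA and 2037 in MHCC97H mRNA, against 6.35 in Hep3B RNC-mRNA and 2.56 in Hep3B mRNA. It ranked 11, 15, 9 and 9 among all genes in the first 4 of these libraries and 6566 and 9760 in Hep3B. All 4 libraries of HCCLM3 and MHCC97H were above both of Hep3B, by 516-fold for HCCLM3 and 796-fold for MHCC97H in mRNA and by 242-fold and 351-fold in RNC-mRNA. The 95% counting intervals were 474 to 562 and 732 to 868 in mRNA and 230.4 to 254 and 334 to 369 in RNC-mRNA. All such intervals cover counting error only and leave out variation between cultures.

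AKR1B1 is aldose reductase, the first enzyme of the polyol pathway from glucose to sorbitol, and also makes prostaglandin F. It stood at 824 RPKM in HCCLM3 RNC-mRNA, 977 in HCCLM3 mRNA, 687 in MHCC97H RNC-mRNA and 692 in MHCC97H mRNA, against 0.382 in Hep3B RNC-mRNA and 0.538 in Hep3B mRNA. Hep3B had 116 and 138 reads in RNC-mRNA and mRNA. HCCLM3 was 2154-fold above Hep3B in RNC-mRNA (interval 1796 to 2607) and 1814-fold in mRNA (1535 to 2159), and MHCC97H was 1796-fold (1498 to 2174) and 1286-fold (1088 to 1531) above it. AKR1B1 had the widest gap of the 9 members between these lines and Hep3B in RNC-mRNA.

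AKR1B15, the neighbour and close copy of AKR1B10, is no member and its reads are uncertain, since no source used here says how reads that fit several genes were counted. It had 57.0 RPKM in HCCLM3 RNC-mRNA, 48.6 in HCCLM3 mRNA, 88.2 in MHCC97H RNC-mRNA and 80.2 in MHCC97H mRNA, against 0.451 in Hep3B RNC-mRNA and 2.01 in Hep3B mRNA. For each 100 reads of AKR1B10 there were 4.61 to 4.95 reads of AKR1B15 in the 4 libraries of HCCLM3 and MHCC97H. In Hep3B there were 8.88 in RNC-mRNA and 98.5 in mRNA, so the pair had a near-constant proportion in HCCLM3 and MHCC97H and none such in Hep3B.

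AKR1C1, a hydroxysteroid dehydrogenase that inactivates progesterone, stood at 329.8 RPKM in HCCLM3 RNC-mRNA, 255 in HCCLM3 mRNA, 340.2 in MHCC97H RNC-mRNA and 290.4 in MHCC97H mRNA, against 0.348 in Hep3B RNC-mRNA and 0.149 in Hep3B mRNA. AKR1C2, which inactivates dihydrotestosterone, stood at 88.0 RPKM in HCCLM3 RNC-mRNA, 70.5 in HCCLM3 mRNA, 101.0 in MHCC97H RNC-mRNA and 87.9 in MHCC97H mRNA, against 0.0611 in Hep3B RNC-mRNA and 0.0313 in Hep3B mRNA. AKR1C3, which makes testosterone from androstenedione and is also a prostaglandin F synthase, stood at 339.5 RPKM in HCCLM3 RNC-mRNA, 225 in HCCLM3 mRNA, 402 in MHCC97H RNC-mRNA and 271 in MHCC97H mRNA, against 0.50 in Hep3B RNC-mRNA and 0.267 in Hep3B mRNA. The Hep3B values of all 3 were under 1 RPKM and those of the other lines over 70, with no overlap. In mRNA AKR1C1 was 1710-fold higher in HCCLM3 than in Hep3B (interval 1443 to 2043) and 1944-fold higher in MHCC97H (1640 to 2322). AKR1C3 was 842-fold higher in HCCLM3 mRNA (659 to 1094) and 1017-fold higher in MHCC97H mRNA (796 to 1321). AKR1C2 rested on 16 reads in Hep3B mRNA, and its folds of 2253 (1387 to 3942) in HCCLM3 and 2811 (1731 to 4919) in MHCC97H have wide intervals.

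AKR1C4, the member best known from liver, where it acts on bile acid precursors and steroids, did not share these levels. It stood at 3.76 RPKM in HCCLM3 RNC-mRNA, 3.46 in HCCLM3 mRNA, 2.01 in MHCC97H RNC-mRNA and 1.62 in MHCC97H mRNA, against 0.108 in Hep3B RNC-mRNA and 0.0746 in Hep3B mRNA, where it had 24 and 14 reads. Its fold over Hep3B was 46.4 in HCCLM3 mRNA (27.4 to 85.3) and 21.7 in MHCC97H mRNA (12.8 to 40.2), and 34.9 and 18.6 in RNC-mRNA. The gene stood lower than its 3 neighbours in the 4 libraries of HCCLM3 and MHCC97H and between AKR1C2 and AKR1C1 in Hep3B.

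Reads of near copies may have been split between them, so the AKR1C genes were also summed. Per 1000000 reads the 4 genes had 3169 reads in HCCLM3 RNC-mRNA, 2395 in HCCLM3 mRNA, 3400 in MHCC97H RNC-mRNA and 2778 in MHCC97H mRNA, against 3.63 in Hep3B RNC-mRNA and 1.71 in Hep3B mRNA. On the log2 scale the summed reads were higher by 9.77 in HCCLM3 and 9.87 in MHCC97H than in Hep3B RNC-mRNA and by 10.45 and 10.67 in mRNA. For each 100 reads of AKR1C1 there were 15.3 to 17.4 reads of AKR1C2 in the 4 libraries of HCCLM3 and MHCC97H, and 10.1 and 12.03 in Hep3B RNC-mRNA and mRNA. The gene models behind the RPKM differ in length, with 6705 bases for AKR1C1, 3853 for AKR1C2, 1807 for AKR1C3 and 1414 for AKR1C4, so the order of the levels of AKR1C1 and AKR1C3 depends on these models. That order also differed by fraction, with AKR1C3 above AKR1C1 in RNC-mRNA and below it in mRNA in both HCCLM3 and MHCC97H.

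AKR1A1, AKR7A2 and AKR7A3 differed by less than 4-fold between the 3 lines. AKR1A1, the general aldehyde reductase, stood at 28.5 RPKM in HCCLM3 RNC-mRNA, 26.5 in HCCLM3 mRNA, 27.9 in MHCC97H RNC-mRNA and 26.2 in MHCC97H mRNA, against 43.4 in Hep3B RNC-mRNA and 33.1 in Hep3B mRNA. AKR7A2, a reductase of succinic semialdehyde and of aflatoxin dialdehyde, stood at 19.2 RPKM in HCCLM3 RNC-mRNA, 17.9 in HCCLM3 mRNA, 20.9 in MHCC97H RNC-mRNA and 18.9 in MHCC97H mRNA, against 40.6 in Hep3B RNC-mRNA and 27.0 in Hep3B mRNA. Both were lower in HCCLM3 and MHCC97H than in Hep3B, AKR1A1 by log2 ratios of -0.61 and -0.63 in RNC-mRNA and -0.32 and -0.34 in mRNA, and AKR7A2 by -1.07 and -0.95 in RNC-mRNA and -0.59 and -0.51 in mRNA. AKR7A3, which reduces aflatoxin dialdehyde, stood at 3.04 RPKM in HCCLM3 RNC-mRNA, 2.86 in HCCLM3 mRNA, 3.55 in MHCC97H RNC-mRNA and 3.92 in MHCC97H mRNA, against 2.60 in Hep3B RNC-mRNA and 2.09 in Hep3B mRNA. Its ratios were 0.22 for HCCLM3 and 0.43 for MHCC97H in RNC-mRNA and 0.44 and 0.88 in mRNA, and that of HCCLM3 RNC-mRNA was -0.01 once centred on the median ratio of expressed genes, which in RNC-mRNA was 0.24 (HCCLM3 over Hep3B) and 0.25 (MHCC97H over Hep3B).

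By a size rule of a 4-fold ratio of RPKM + 0.1, for genes whose higher library reached 1 RPKM, 6 of the 9 members were higher and 0 lower than in Hep3B, in HCCLM3 and in MHCC97H and in both fractions. The 6 were AKR1B1, AKR1B10 and AKR1C1 to AKR1C4, and 5 of them, all but AKR1B10, reached 1 RPKM only through HCCLM3 and MHCC97H. Of all genes in mRNA 8.5% were higher and 9.92% lower for HCCLM3 over Hep3B, and in RNC-mRNA the shares were 11.1% and 9.74%. For MHCC97H over Hep3B the shares in mRNA were 8.16% higher and 9.44% lower, and those in RNC-mRNA were 11% and 9.55%. The members' median log2 ratio was 8.96 for HCCLM3 and 9.39 for MHCC97H in mRNA, beside medians of -0.03 and -0.01 over all genes tested, and 7.90 and 8.43 in RNC-mRNA beside 0.25 and 0.26. Since the family was chosen with these values known, nothing is read from the comparison with the background. The added 0.1 RPKM understates the folds of the low Hep3B levels. With 1 RPKM added in its place AKR1C4 missed the rule for MHCC97H, at log2 ratios of 1.44 in RNC-mRNA and 1.29 in mRNA.

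**Figure D2:**
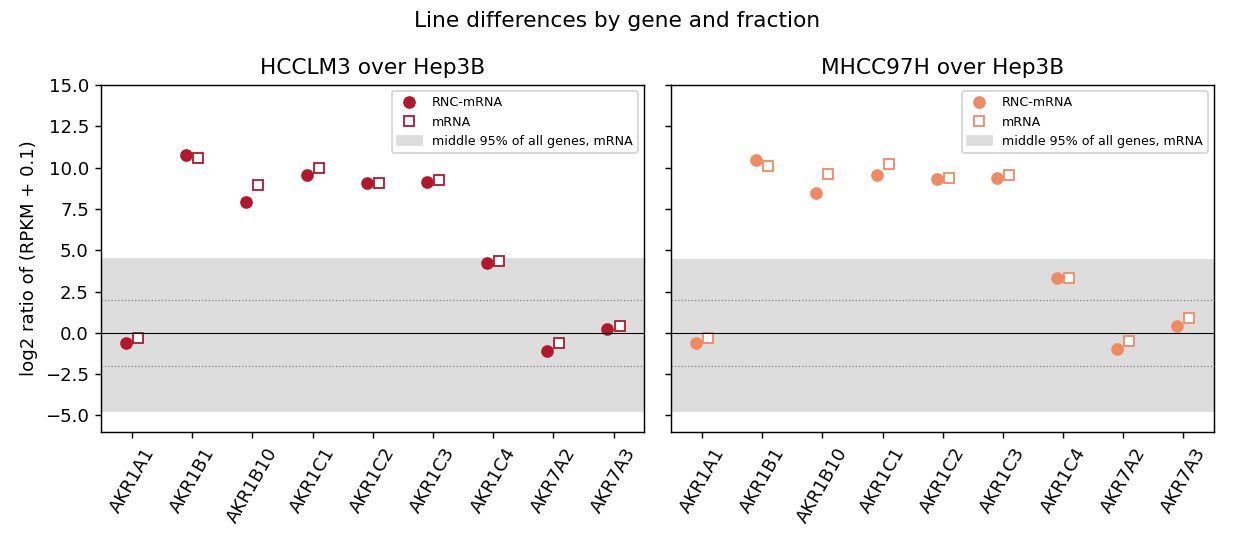
Log2 ratio of (RPKM + 0.1) of HCCLM3 (left) and MHCC97H (right) over Hep3B for each gene, with filled circles for RNC-mRNA, open squares for mRNA, a grey band for the middle 95% of all genes in mRNA and dotted lines at a 4-fold ratio. AKR1B1, AKR1B10 and AKR1C1 to AKR1C3 lie above the band, with mRNA ratios of 8.96 to 10.58 in HCCLM3 and 9.39 to 10.19 in MHCC97H, and the other 4 genes lie inside it.

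Between HCCLM3 and MHCC97H the members differed less, and 0 of 9 met the size rule in either direction in either fraction. In this comparison 0.222% of all genes were higher and 0.333% lower in HCCLM3 mRNA, and 0.325% and 0.369% in RNC-mRNA. AKR1C4 was 2.13-fold higher in HCCLM3 mRNA (interval 1.86 to 2.45) and 1.87-fold in RNC-mRNA (1.66 to 2.11). AKR1B1 was 1.41-fold higher in mRNA (1.40 to 1.42) and 1.20-fold in RNC-mRNA (1.19 to 1.21). AKR1B10 went the other way, with a ratio of HCCLM3 over MHCC97H of 0.648 in mRNA (0.644 to 0.651) and 0.689 in RNC-mRNA (0.687 to 0.692). The pair of AKR1B genes therefore had opposite directions between the sister lines, in both fractions, and AKR1C1, AKR1C2, AKR1C3 and AKR7A3 had ratios of 0.730 to 0.880 in mRNA. The intervals given leave out a ratio of 1, so counting error does not cover these differences, while the spread between cultures of a line is unknown.

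The neighbours of the AKR1B and AKR1C genes in the genome were mixed in size and direction of their line differences. Around AKR1B1 and AKR1B10, BPGM on the far side of AKR1B15 had 5.48 RPKM in HCCLM3 RNC-mRNA, 2.62 in HCCLM3 mRNA, 7.57 in MHCC97H RNC-mRNA and 4.28 in MHCC97H mRNA, against 3.48 in Hep3B RNC-mRNA and 2.97 in Hep3B mRNA. CALD1, which encodes the actin-binding caldesmon, had log2 ratios over Hep3B of -0.83 in HCCLM3 mRNA and -0.65 in MHCC97H mRNA, and EXOC4 of the exocyst had -0.12 and 0.04. SLC35B4, a nucleotide sugar transporter, had mRNA ratios of 1.07 in HCCLM3 and 1.34 in MHCC97H, and RNC-mRNA ratios of 2.25 and 2.51. Beside the AKR1C genes, AKR1E2 of the same superfamily stood at 2.42 RPKM in HCCLM3 RNC-mRNA, 2.43 in HCCLM3 mRNA, 1.76 in MHCC97H RNC-mRNA and 1.79 in MHCC97H mRNA. In Hep3B it had 0 reads in RNC-mRNA, which allows up to 0.0115 RPKM at 3 reads, and 3 reads in mRNA. PITRM1, a mitochondrial peptidase gene, had log2 ratios of 2.12 in HCCLM3 mRNA and 1.87 in MHCC97H mRNA. KLF6, a transcription factor gene next to AKR1E2, had ratios of -0.17 in HCCLM3 mRNA and -0.0006 in MHCC97H mRNA, and NET1 on the other side had 0.08 and 0.04. UCN3, which encodes urocortin and adjoins AKR1C4, went the other way, with at most 0.0117 RPKM in the 4 libraries of HCCLM3 and MHCC97H, against 4.64 in Hep3B RNC-mRNA and 2.35 in Hep3B mRNA. AKR1C8, between AKR1C3 and AKR1C4 and listed in the tables as AKR1CL1, stayed under 1 RPKM in all 6 libraries. It had 62 reads in HCCLM3 RNC-mRNA, 49 in HCCLM3 mRNA, 78 in MHCC97H RNC-mRNA and 99 in MHCC97H mRNA, against 0 in Hep3B RNC-mRNA and 1 in Hep3B mRNA, the same direction as the AKR1C members.

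**Figure D3:**
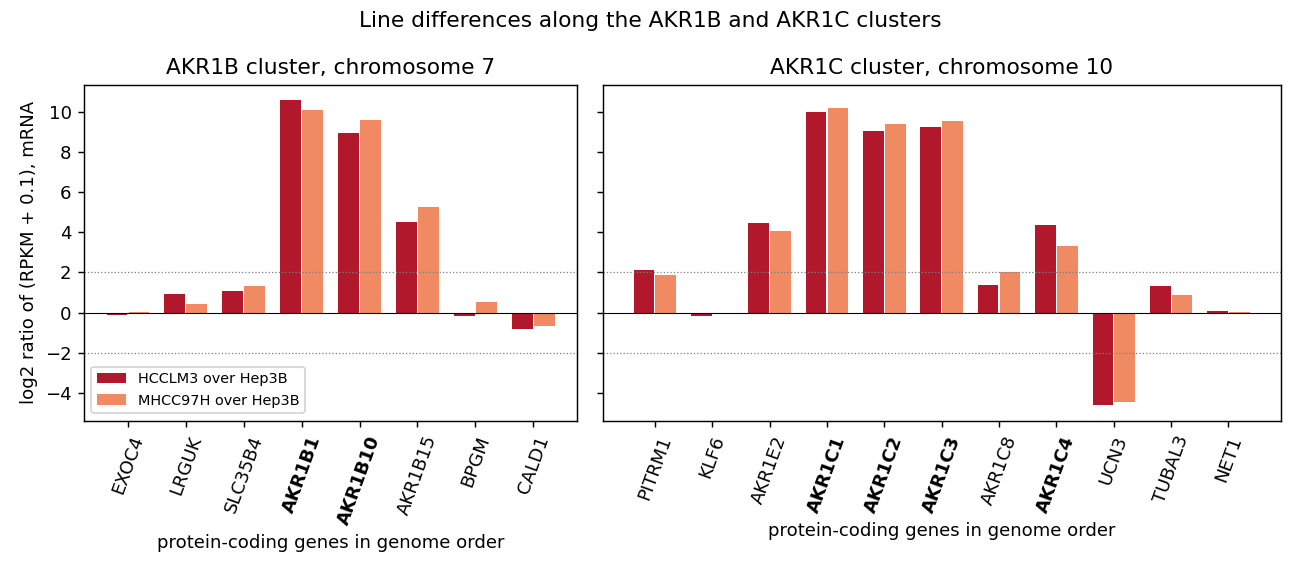
Log2 ratio of (RPKM + 0.1) in mRNA of HCCLM3 and MHCC97H over Hep3B for protein-coding genes in genome order around the AKR1B (left) and AKR1C (right) genes, with members in bold and dotted lines at a 4-fold ratio. In HCCLM3 bars of 8.96 to 10.58 stand at AKR1B1, AKR1B10 and AKR1C1 to AKR1C3, beside bars of -0.17 for KLF6 and -0.83 for CALD1.

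Of the 6 neighbours of AKR1A1, 5 were lower than in Hep3B in mRNA of both lines, as AKR1A1 was. Their log2 ratios for HCCLM3 and MHCC97H were -0.84 and -0.62 for CCDC163, -0.96 and -1.11 for MMACHC, -0.65 and -0.85 for NASP, -2.19 and -2.25 for CCDC17, and -0.97 and -0.94 for GPBP1L1. PRDX1, the other one, a peroxiredoxin gene and a listed NRF2 target, had 569 RPKM in HCCLM3 RNC-mRNA, 428 in HCCLM3 mRNA, 544 in MHCC97H RNC-mRNA and 371 in MHCC97H mRNA, against 204 in Hep3B RNC-mRNA and 175 in Hep3B mRNA. Its log2 ratios of 1.29 in HCCLM3 mRNA and 1.09 in MHCC97H mRNA stood beside -0.32 and -0.34 for AKR1A1. CCDC17 had at most 0.201 RPKM in HCCLM3 and MHCC97H, and NASP had 0.06 and -0.10 in RNC-mRNA. The median log2 ratio over all genes was -0.03 in HCCLM3 mRNA and -0.01 in MHCC97H mRNA, so a ratio below 0 was common. MRTO4, a ribosome assembly factor gene beside AKR7A3, had 1.12 and 0.95, and CAPZB, an actin capping protein gene near AKR7A2, had -0.13 and -0.07.

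The other comparison was of RNC-mRNA with mRNA, which asks how strongly each transcript was represented among the mRNA in translation relative to the other genes. The members' median log2 ratio of RPKM + 0.1 was 0.12 in HCCLM3 and 0.14 in MHCC97H, beside 0.17 and 0.16 over all genes at 1 RPKM in both fractions. A 2-fold ratio was reached by 0 of 9 members in either direction, where 0.842% of all genes were higher and 2.47% lower in HCCLM3, and 0.464% and 2.68% in MHCC97H. AKR1C3 had the highest ratio in both lines, at 0.60 in HCCLM3 (interval 0.58 to 0.61) and 0.57 in MHCC97H (0.55 to 0.58), above 89.35% and 87.4% of all genes. AKR1B1 had the lowest in HCCLM3, at -0.25 (-0.25 to -0.24), above 17.8% of genes, and stood at -0.01 in MHCC97H. AKR1B10 had 0.22 in HCCLM3 and 0.13 in MHCC97H, AKR1C1 0.37 and 0.23, and AKR1C2 0.32 and 0.20. Relative to the median of all genes, AKR1C3 stood at 0.43 in HCCLM3 and 0.41 in MHCC97H, while AKR1B10 stood at 0.05 and -0.03, so the sign of AKR1B10 in MHCC97H depends on the scaling.

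In Hep3B, 4 members reached 1 RPKM in both fractions and 1 of them, AKR1B10, was over 2-fold higher in RNC-mRNA, where 1.89% of all genes were higher and 7.73% lower. With 1587 reads in RNC-mRNA and 540 in mRNA its log2 ratio was 1.31 (1.17 to 1.45), and with 0.1 RPKM added it was 1.28, above 99.2% of all genes. Its near copy AKR1B15 went the other way in Hep3B, with 141 reads in RNC-mRNA and 532 in mRNA. Reads of this pair were not summed, so the ratio of AKR1B10 depends on how reads were shared between them, which was not tested. AKR7A2 had 0.59 (0.54 to 0.64), AKR1A1 0.39 (0.35 to 0.43) and AKR7A3 0.32 (0.15 to 0.49). Among the 5 members under 1 RPKM, AKR1C1 had 1.22 (0.93 to 1.52) and AKR1C3 0.91 (0.47 to 1.36), while AKR1B1 had -0.49 (-0.86 to -0.13). AKR1C2 had 0.97 (0.08 to 1.91) and AKR1C4 0.53 (-0.48 to 1.60), with intervals that overlap those of both other lines. Without a pseudocount 8 of the 9 members had a higher ratio in Hep3B than in both other lines, as had 32.3% of the 16275 genes with reads in all 6 libraries. With 0.1 RPKM added this held for 6 of 9 members and 32.5% of genes, since AKR1C2 and AKR1C4 then stood between the other lines. For 4 of the 9, AKR1A1, AKR1B10, AKR1C1 and AKR7A2, the counting intervals lay clear above both, as they did for 20.4% of genes. The median over all genes was -0.03 in Hep3B, lower than in the other lines, and a difference between lines in this ratio was not tested, since each line had 1 library per fraction.

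**Figure D4:**
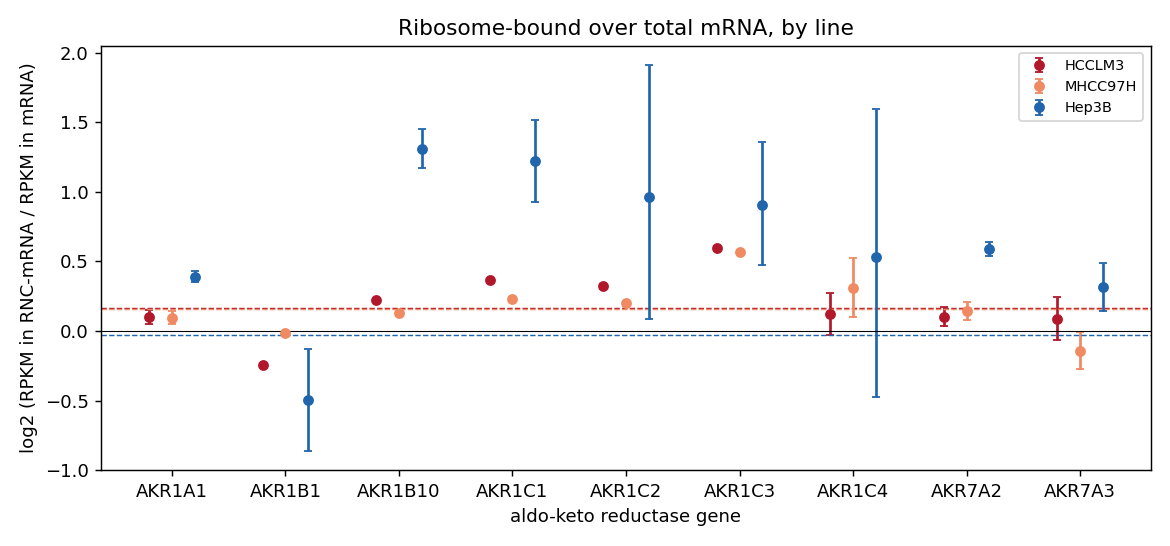
Log2 ratio of RPKM in RNC-mRNA over mRNA for each gene in HCCLM3, MHCC97H and Hep3B, with bars for the 95% counting interval and dashed lines at the median of all genes in that line. AKR1B10 stands at 1.31 in Hep3B against 0.22 in HCCLM3 and 0.13 in MHCC97H, and AKR1B1 lies below 0 in the 3 lines. AKR1B15, the near copy of AKR1B10, is not shown and had -2.16 in Hep3B.

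Over the 3 lines together the ratio was tested on the counts with edgeR's quasi-likelihood test, with the line as a block and Benjamini-Hochberg adjustment over 11905 genes with a mean of at least 1 RPKM. The 3 lines served as the replicates of the fraction effect, and each library pools its cultures. HCCLM3 and MHCC97H descend from 1 parental line, so the 3 lines are not fully independent replicates. All 9 members passed this filter, AKR1B1 and AKR1C1 to AKR1C4 through HCCLM3 and MHCC97H alone. None of the 9 was called by edgeR at an adjusted p under 0.05, where 0.0672% of all genes were higher and 2.65% lower. The smallest p was that of AKR1C3, higher in RNC-mRNA in 3 of 3 lines, with a log2 ratio of 0.61 ± 0.17 (SE) and an edgeR adjusted p of 0.117. Its unadjusted edgeR p of 0.0193 was the only one of the 9 under 0.05. DESeq2 called the same gene, at a log2 ratio of 0.62 and an adjusted p of 0.0236, and over 8 alternatives its adjusted p ran from 8.25e-06 to 0.9998. AKR1C1 had 0.53 ± 0.30 (SE, edgeR adjusted p = 0.318), AKR1B10 0.50 ± 0.35 (adjusted p = 0.409) and AKR1B1 -0.28 ± 0.14 (adjusted p = 0.270). The log2 ratio of AKR1B10 was 0.05 without Hep3B, 0.72 without HCCLM3 and 0.75 without MHCC97H, and that of AKR1C2, 0.30 over the 3 lines, was 0.13, 0.43 and 0.49. The members' median was 0.24, beside 0.04 over all genes tested. With Hep3B left out, 3 members passed in edgeR, with AKR1C3 (0.45, adjusted p = 8.25e-06) and AKR1C1 (0.17, adjusted p = 0.0361) higher and AKR1B1 (-0.26, adjusted p = 0.00527) lower. That fit takes 2 sister lines as replicates, and it called 4187 genes higher and 4005 lower. The adjusted p of AKR1C1 ran from 0.0361 to 0.9998 over 8 alternatives and that of AKR1B1 from 0.00527 to 0.9998 over 9.

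Genes that work beside the aldo-keto reductases were followed in 9 further lists, written with earlier results of these data known. Genes counted as higher or lower in them are those past the 4-fold size rule. In mRNA 8.5% of all genes were higher and 9.92% lower in HCCLM3, and 8.16% and 9.44% in MHCC97H. In RNC-mRNA these shares were 11.1% and 9.74% in HCCLM3 and 11% and 9.55% in MHCC97H. They stand beside the counts of each list below. Of 25 NRF2 target genes 15 were at least 4-fold higher in HCCLM3 mRNA than in Hep3B mRNA and 0 were lower, with a median log2 ratio of 2.60, and 15 were higher in MHCC97H mRNA, with a median of 2.49. In RNC-mRNA 16 of 25 were higher in each line. NQO1, a quinone reductase, stood at 426 RPKM in HCCLM3 RNC-mRNA, 322 in HCCLM3 mRNA, 421 in MHCC97H RNC-mRNA and 324 in MHCC97H mRNA, against 5.31 in Hep3B RNC-mRNA and 3.75 in Hep3B mRNA. GPX2, a glutathione peroxidase, stood at 574 RPKM in HCCLM3 RNC-mRNA, 532 in HCCLM3 mRNA, 491 in MHCC97H RNC-mRNA and 424 in MHCC97H mRNA, against 2.15 in Hep3B RNC-mRNA and 2.64 in Hep3B mRNA. GCLM of glutathione synthesis had 45.6 RPKM in mRNA of HCCLM3 and 48.6 in that of MHCC97H, against 2.17 in Hep3B mRNA.

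The NRF2 core list holds 10 genes that regulate this factor or act beside it. By the size rule 1 was lower and 0 were higher in each line and fraction. That is near the share of all genes, of which 9.92% were lower in HCCLM3 mRNA and 9.44% in MHCC97H mRNA. In RNC-mRNA the shares were 9.74% and 9.55%, so nothing is read from this count. The medians were -0.52 in HCCLM3 mRNA and -0.53 in MHCC97H mRNA. The lower one was KEAP1, the adaptor that marks NRF2 for degradation, at 13.5 RPKM in HCCLM3 RNC-mRNA, 8.44 in HCCLM3 mRNA, 11.5 in MHCC97H RNC-mRNA and 7.72 in MHCC97H mRNA, against 60.7 in Hep3B RNC-mRNA and 48.9 in Hep3B mRNA. NFE2L2, which encodes NRF2, had log2 ratios of -1.20 in HCCLM3 mRNA and -1.28 in MHCC97H mRNA, BACH1, a repressor of the same sites, -1.57 and -1.28 (and -0.07 and 0.08 in RNC-mRNA), and MAFG, a DNA-binding partner, 1.80 and 1.73.

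By the size rule 7 of 12 prostaglandin genes tested in HCCLM3 mRNA were higher than in Hep3B and 1 was lower, and of 13 in MHCC97H mRNA the counts were 8 and 1, with medians of 3.39 and 3.33. PTGR1, a prostaglandin reductase, stood at 562 RPKM in HCCLM3 RNC-mRNA, 463 in HCCLM3 mRNA, 563 in MHCC97H RNC-mRNA and 459 in MHCC97H mRNA, against 1.04 in Hep3B RNC-mRNA and 1.19 in Hep3B mRNA. TBXAS1, thromboxane synthase, had mRNA log2 ratios of 5.86 and 6.02 and HPGD, which breaks prostaglandins down, 4.73 and 4.17. PTGDS, a prostaglandin D synthase, was the lower one, with 1.75 RPKM in mRNA of HCCLM3 and 1.98 in that of MHCC97H, against 43.6 in Hep3B mRNA.

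Of the carbonyl reductases of the other enzyme superfamily, the short-chain dehydrogenases, 3 of 6 were higher by the size rule in HCCLM3 mRNA and 2 of 6 in MHCC97H mRNA, with 0 lower by it and medians of 0.99 and 0.83. HSD11B1, HSD17B8 and HSD17B10 of this list had no row and were left out. CBR3 had log2 ratios of 5.47 and 5.38, CBR1 3.37 and 3.21, DHRS4 2.31 and 1.89, and DHRS7 -0.56 and -0.81. Of 14 genes of aldehyde and aflatoxin detoxication 4 were higher in HCCLM3 mRNA and 5 in MHCC97H mRNA, with 2 lower in each and medians of 0.55 and 0.61. ALDH3A1, an aldehyde dehydrogenase, had 642 RPKM in mRNA of HCCLM3 and 578 in that of MHCC97H, against 0.636 in Hep3B mRNA, and the glutathione transferases GSTA1 and GSTP1 had ratios of 4.91 and 5.83 in HCCLM3 and 6.04 and 5.53 in MHCC97H. ABAT, the transaminase of the pathway in which AKR7A2 acts on succinic semialdehyde, was lower, with 0.280 RPKM in mRNA of HCCLM3 and 0.216 in that of MHCC97H, against 19.9 in Hep3B mRNA.

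The steroid, polyol and retinoid lists had few tested genes past the size rule. Of all genes 9.92% were lower in HCCLM3 mRNA and 9.44% in MHCC97H mRNA, and 8.5% and 8.16% were higher. Of the polyol and hexose genes 0 of 7 were higher and 1 was lower in mRNA of both lines (medians 0.59 in HCCLM3 and 0.10 in MHCC97H), the lower one being KHK, ketohexokinase, with -2.66 and -3.12. SORD, which oxidises the sorbitol that AKR1B1 makes, had -1.51 and -0.98, while TPI1 had 1.61 and 1.42 and ALDOA 1.52 and 1.23. Of 9 steroid and bile acid genes 0 were higher and 1 was lower in mRNA of both lines (medians -0.92 and -0.78), the lower one being CYP7B1 at -3.96 and -4.00. HSD17B4, counted among the 9, had no row of its own and was read by synonym from the row DBP, also the symbol of another gene. That row met the size rule in neither line, and its own MHCC97H value is the median of -0.78. Of the 23 listed genes 13 had a row, DBP included. The other listed HSD genes, such as HSD3B1, HSD11B2 and HSD17B12, had no row of their own. The counts of this list thus leave out the listed hydroxysteroid dehydrogenases, whose levels are not known here. AMACR had -1.15 and -1.26, ACOX2 -1.62 and -1.44, and SLC27A5 1.19 and 1.08. Of 11 retinoid genes 2 were higher in mRNA of both lines (medians 0.19 and 0.24). CRABP2, a retinoic acid binding protein, had 8.09 and 7.10, and DHRS9, a retinol dehydrogenase, 6.51 and 6.70, while RDH12, another retinol dehydrogenase, had -1.86 and -1.87. Among the other aldo-keto reductases AKR1B15 and AKR1E2 were the 2 higher of 4, with 0 lower (medians 2.502 and 2.125). KCNAB2 and KCNAB3, potassium channel subunits of the superfamily, had 0.53 and -0.52 in HCCLM3 mRNA and 0.19 and -0.86 in MHCC97H mRNA, and KCNAB3 stood at 0.33 RPKM in HCCLM3 RNC-mRNA against 1.22 in HCCLM3 mRNA.

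**Figure D5:**
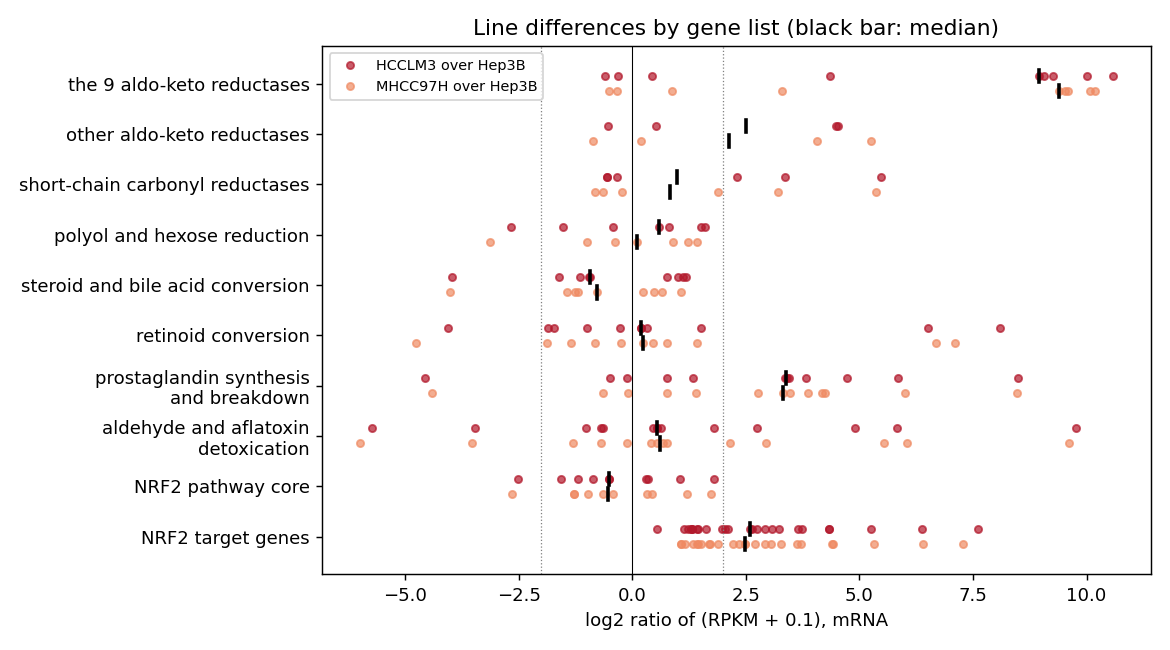
Log2 ratio of (RPKM + 0.1) in mRNA of HCCLM3 and MHCC97H over Hep3B for the genes of each list at 1 RPKM in either library, with black bars at the medians and dotted lines at a 4-fold ratio. The NRF2 targets have medians of 2.60 and 2.49 and none of them is below 0, while the genes of the NRF2 pathway core have medians of -0.52 and -0.53. The steroid and bile acid list includes the row DBP, read for HSD17B4.

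In the edgeR test of RNC-mRNA over mRNA, 0.0672% of all genes passed as higher and 2.65% as lower. Of the 25 NRF2 targets 0 passed, with a median log2 ratio of 0.20, and 0 of the 10 genes of the NRF2 core passed, with 0.16. In the other 7 lists 1 gene passed, lower in RNC-mRNA, among the 14 tested of aldehyde and aflatoxin detoxication. It was ALDH5A1, named after its value was seen, the succinic semialdehyde dehydrogenase, at a log2 ratio of -0.97 ± 0.13 (SE, edgeR adjusted p = 0.0453).

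Other genes had levels close to those of single members over the 6 libraries, by the Euclidean distance of log2(RPKM + 0.1) among 11904 genes. The gene nearest to AKR1B1 was LDHB, a lactate dehydrogenase subunit, at a distance of 1.15. It stood at 681 RPKM in HCCLM3 RNC-mRNA, 529 in HCCLM3 mRNA, 652 in MHCC97H RNC-mRNA and 515 in MHCC97H mRNA, against 0.244 in Hep3B RNC-mRNA and 0.632 in Hep3B mRNA. ALDH3A1 at 1.67 and PTGR1 at 2.12, described above, followed. Nearest to AKR1B10 were the caveolin genes CAV1, at 1.27, and CAV2, at 2.02, and then S100A10, at 2.53. AKR1C1 and AKR1C3 were near each other, at 0.77, and both had PLP2 among their 3 nearest, at 0.69 and 0.41, beside CTB-102L5.4 at 0.59 for AKR1C1 and EMP3 at 0.85 for AKR1C3. AKR1C2 had CD44, a hyaluronan receptor gene, at 0.49, EMC10 at 0.72 and PRR15 at 0.99. AKR1A1 was nearest to ARMC6 at 0.23 and UBE2J2 and TM9SF1 at 0.27, and AKR7A2 to MED11 at 0.23, ZDHHC24 at 0.28 and ELP5 at 0.29. These distances rest on 6 libraries of 3 lines and describe likeness of level alone.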

How the data were processed

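Read counts per gene and RPKM were taken from 6 gene tables, 1 per library. The read counts are the authors' deposited raw counts per gene, per the file headers. A gene with a line for some libraries was set to 0 where its line was missing. Listed genes with no line for any library were left out, and this need not mean that they had no reads. The RPKM values are the authors' own, per the file headers, scaled by gene model length and by a library total that counts and RPKM together return. The submitters' processing notes name hg19 and edgeR with no role. No source used here gives the aligner, strand use or treatment of reads that fit several genes. Members and lists were chosen with earlier results of these data known.

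Line differences are log2 ratios of RPKM + 0.1, with exact 95% conditional binomial intervals on the counts (no pseudocount) that cover counting error only. The fraction effect was tested with edgeR 4.0.16 (R 4.3.3, TMM, quasi-likelihood, line as block, mean RPKM of at least 1, Benjamini-Hochberg, 0.05), with DESeq2 1.42.0 as an alternative. Block and pairing come from the cell line itself. Beside the members, the genes named are up to 4 per list with the largest absolute mRNA log2 ratio over Hep3B, averaged over HCCLM3 and MHCC97H, the 3 nearest in level to each member reaching 10 RPKM, and 3 annotated neighbours on either side of each cluster. Some genes that this rule names are not reported here. Neighbour order and upstream sequences are from RefSeq (GRCh38.p14), aligned with Biopython 1.88.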

Additional observations from a re-analysis of the deposited data

Results flagged for a closer look

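In 3 comparisons the log2 ratio of RNC-mRNA to mRNA lay on one side of 0 in HCCLM3 or MHCC97H and on the other in Hep3B, with counting intervals that left out 0 on both sides. The difference between lines was not tested in any of them. AKR7A3 had -0.14 in MHCC97H (-0.27 to -0.01) and 0.32 in Hep3B (0.15 to 0.49), a difference of -0.46. AKR1B15, the near copy of AKR1B10, had 0.23 in HCCLM3 (0.20 to 0.27) and 0.14 in MHCC97H (0.11 to 0.16), against -2.16 in Hep3B (-2.44 to -1.89), which are differences of 2.39 and 2.30. In Hep3B AKR1B15 had 141 reads in RNC-mRNA and 532 in mRNA, while AKR1B10 had 1587 and 540. How the counting shared reads between AKR1B15 and AKR1B10 was not tested.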

How the results depend on the processing

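The 6 members higher than in Hep3B stayed within 1.5 times of that count under each pseudocount, scaling and filter tried. AKR1C4 missed the rule in MHCC97H with 1 RPKM added. In the edgeR test of the fractions, which called 0 members, 8 genes higher and 316 lower, DESeq2 called 1 member higher, 662 genes higher and 1300 lower. With no expression filter edgeR called 431 higher and 1443 lower. Without the block by line the test called 0 members and 0 genes in either direction, with 873 genes at an unadjusted p under 0.05. Leaving out 1 line in turn gave 0 to 2 members higher and 0 to 1 lower, with 3 to 4187 genes higher and 119 to 4005 lower. Leaving out 1 line in turn, the log2 ratio ran from -0.030 (without Hep3B) to 0.25 for AKR1A1, from -0.0039 to 0.38 for AKR7A2 and from -0.16 to 0.20 for AKR7A3, none of them called. The cause of these changes was not tested. With the AKR1C genes summed the log2 ratio was 0.53 ± 0.27 (SE, edgeR adjusted p = 0.271). The Hep3B levels of AKR1C2 and AKR1C4 rest on 14 to 37 reads, which limits their folds.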
